A study of Homo sapiens with 6 samples.

Results

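The Hippo pathway was followed here through 10 of the 38100 genes in the deposited tables. They are YAP1 and WWTR1 (which encodes TAZ), the DNA-binding partners TEAD1 and TEAD4, and the targets and regulators NUAK2, ANKRD1, AJUBA, AMOTL2, LATS2 and AXL. The genes were named by symbol with earlier results of these data known. NUAK2 and ANKRD1 were chosen by their measured differences between the groups of this experiment, so their values are given as a description without a test. The other 8 genes were tested with all others.

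HK2, a cell line from the proximal tubular epithelium of the human kidney, carried either an adenovirus with an empty vector (AdCtrl) or an adenovirus for SIRT4 (AdSIRT4), and all were stimulated with TGF-β1. Each group had 3 RNA sequencing samples. No cells without virus and none without TGF-β1 were sequenced, so the values compare SIRT4 overexpression with empty vector in stimulated cells only. The dose and duration of TGF-β1 and the promoter that drives SIRT4 were not given in the sources used here. In the cell line field the number after HK differed between samples, whereas the titles of all 6 named HK2. The study's checklist takes n in vitro as technical replicates, its methods speak in general of independent experiments, and the labels do not say whether these samples came from separate cultures. The p-values below measure the spread between these samples, which may be technical.

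In the Hippo pathway, the kinases MST1 and MST2 activate LATS1 and LATS2, which phosphorylate YAP and TAZ and keep them out of the nucleus. When the kinases are inactive, YAP and TAZ enter the nucleus and act with TEAD factors, which bind DNA, to switch on genes such as CCN1, CCN2 and ANKRD1. Some of these targets, such as LATS2 and AMOTL2, feed back on the pathway, and in the kidney YAP and TAZ activity has been tied to injured tubules and fibrosis. mRNA levels do not report the location or phosphorylation of the YAP and TAZ proteins.

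The start sites of NUAK2 and ANKRD1 are shown because these genes carried the largest differences of the 10 and hold the letters that TEAD factors recognise more than once. The 250 bases before each start site were read from the RefSeq promoter table of GRCh38.p14, 5′ to 3′ on the strand of the gene, and 8 of the 10 genes had an entry. TEAD1 and TEAD4 had none. Capitals mark CATTCC or its reverse complement GGAATG, the core of the MCAT element, searched on both strands. For CCN2, a target often used as a readout of YAP, the bases from -200 to -81 are shown beside them for the same letters. NUAK2 lies at chr1:205321746-205321995, ANKRD1 at chr10:90921088-90921337 and CCN2 at chr6:131951453-131951572, all on the minus strand.
NUAK2: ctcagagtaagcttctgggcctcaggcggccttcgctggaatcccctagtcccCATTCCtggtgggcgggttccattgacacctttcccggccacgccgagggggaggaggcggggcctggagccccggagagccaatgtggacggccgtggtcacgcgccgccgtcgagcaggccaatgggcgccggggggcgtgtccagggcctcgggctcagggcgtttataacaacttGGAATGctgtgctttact
ANKRD1: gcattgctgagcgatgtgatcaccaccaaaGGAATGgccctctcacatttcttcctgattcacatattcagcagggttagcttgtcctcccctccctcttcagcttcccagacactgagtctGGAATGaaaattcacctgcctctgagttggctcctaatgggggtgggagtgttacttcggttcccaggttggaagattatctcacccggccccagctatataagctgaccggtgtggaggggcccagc
CCN2: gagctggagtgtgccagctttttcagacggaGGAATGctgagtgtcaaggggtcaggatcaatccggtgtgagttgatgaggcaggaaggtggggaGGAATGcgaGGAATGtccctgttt

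NUAK2 held the TEAD letters at -197 to -192 and at -18 to -13 from its start site, and ANKRD1 at -220 to -215 and at -128 to -123. Of 27305 promoters of this length, 3248 (11.9%) held them at least 1 time, 263 (0.963%) at least 2 times and 26 (0.0952%) at least 3 times. CCN2 had 3 matches, of which the first base lay at -169, -104 and -95. YAP1 had 1 match, at -162 to -157. WWTR1, AJUBA, AMOTL2, LATS2 and AXL had none in this window, which says only that these letters are not in these 250 bases. The letters TGANTCA, which the AP-1 factors bind and which read the same on both strands, occurred in 6.60% of the promoters. Among the 8 genes, ANKRD1 alone had a match, at -195 to -189, between its TEAD letters and overlapping neither of them. NUAK2 and ANKRD1 were shown in part because they hold repeated matches, so the shares of all promoters are background and nothing is read from them. The matches are letters in the reference and were not tested for binding or for a link to the differences.

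Between 41537353 and 85684748 reads were counted per sample, and 17720 genes passed the filter on low counts, all 10 genes among them. Levels are given as CPM, counts scaled for library depth after TMM normalization. SIRT4, the gene the virus carries, was at 0.930 ± 0.309 CPM in AdCtrl and 76.0 ± 21.9 CPM in AdSIRT4 (mean ± SD, n = 3 each), and was higher in every AdSIRT4 sample (log2 fold change 6.36, standard error 0.357, adjusted p = 0.00801, edgeR). With any AdCtrl sample left out the adjusted p was 0.0559 to 0.203, at log2 fold changes of 6.10 to 6.52, and it was 0.0778 with limma on log2(FPKM + 1). Of 8 epithelial markers 7 reached a mean of 1 CPM, with CDH1 below it, and their summed level was 1826 to 1859 CPM in AdCtrl and 1731 to 2309 CPM in AdSIRT4. Of 10 proximal tubule markers only GGT1, MIOX and SLC5A2 reached 1 CPM in the mean, and LRP2, CUBN, AQP1, ANPEP and SLC22A6 were near 0. Of other cell types, 2 of 7 fibroblast markers (COL1A1 and LUM), 0 of 5 endothelial, 1 of 5 leukocyte (CD68) and 1 of 4 podocyte markers (PODXL) reached it, and COL3A1 and CD3E were at 0 in all samples. In bulk RNA, fewer cells of a type and less RNA per cell cannot be told apart.

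AdSIRT4 replicate 1 stood apart from the other samples, and its difference from AdSIRT4 replicates 2 and 3 followed transcript length. Over 14102 genes, the log2 difference of this sample from the mean of the other two had a Spearman correlation of -0.71 with the length implied by the count and FPKM tables, against -0.24 to 0.25 for the same difference in the AdCtrl samples. Genes of up to 1.497 kb, the shortest decile, differed from replicates 2 and 3 by a median of 0.70 on the log2 scale, and genes from 8.80 kb, the longest decile, by -0.66. On this measure TEAD1, the longest of the 10 at 10.8 kb, lay at -0.95, where genes within 10% of its length had a median of -0.61. YAP1 (-0.34), AMOTL2 (-0.35), LATS2 (-0.35) and AXL (-0.26) also lay below, where the medians for their lengths were -0.30, -0.25, -0.31 and -0.22. WWTR1 lay at 0.19 and AJUBA at 0.13, above medians of -0.27 and -0.11 for their lengths. The shorter ANKRD1 and TEAD4 lay at 0.24 and 0.12 where their lengths had medians of 0.37 and 0.41, and NUAK2 lay at -0.10 against 0.0073. The differences of the 10 genes, and of most other genes named, are also given without this sample, and the part of transcript length in the differences was not tested gene by gene.

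**Figure D1:**
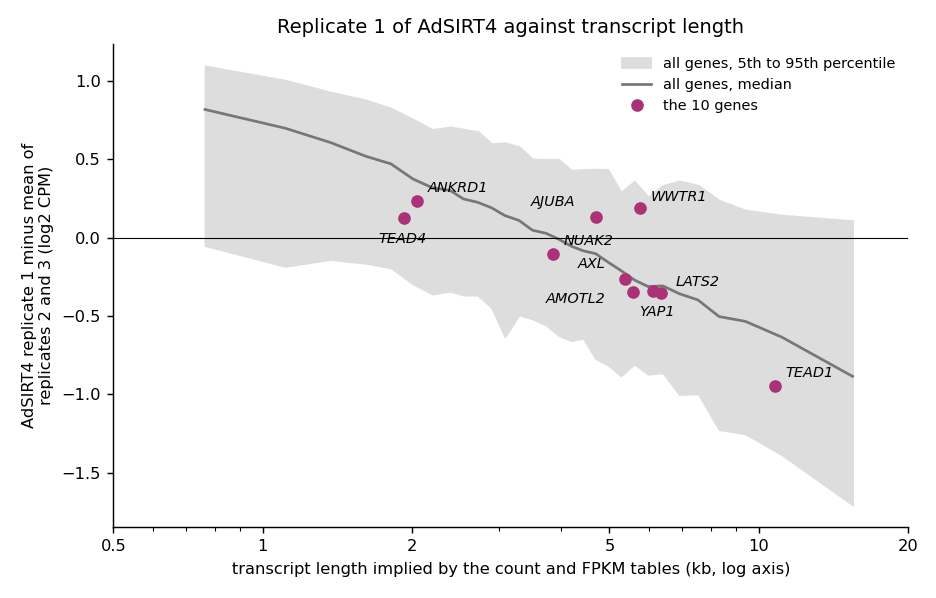
Log2 CPM of AdSIRT4 replicate 1 minus the mean of replicates 2 and 3 (vertical axis) against transcript length in kb on a log axis, with the median and the 5th to 95th percentile of all genes in bins of length and the 10 genes as points. The median falls from 0.82 in the bin of shortest genes to -0.89 in the bin of longest, and TEAD1 is the lowest of the 10 points at -0.95.

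None of the 8 tested genes passed an adjusted p of 0.05 in the edgeR comparison of all 6 samples, in which 2 of 17720 genes did (0.0113%). At an unadjusted p under 0.05 it was 1 of 8, AJUBA, against 7.93% of all genes. In WWTR1 and AJUBA the lowest AdSIRT4 sample was above the highest AdCtrl sample, and no gene of the 8 was below in this way. Groups that did not overlap were found in 19.4% of all genes, and 9.66% of all genes had AdSIRT4 above. The median log2 fold change of the 8 was -0.0031, that of all 17720 genes 0.021. Of the 8, 4 lay above 0 and 4 below. Without AdSIRT4 replicate 1 the median of the 8 was 0.124 and that of all genes -0.0046. With each library's trend on transcript length removed, these medians were 0.062 and 0.016.

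YAP1 and WWTR1 encode the coactivators YAP and TAZ, which do not bind DNA themselves. In the order of the replicate numbers, which holds for all values below, YAP1 (chr11:102110447-102233424) had 179.7, 177 and 188 CPM in AdCtrl and 151, 183 and 199 CPM in AdSIRT4. The groups overlapped, with AdSIRT4 holding both the lowest and the highest sample. With all samples edgeR gave a log2 fold change of -0.032, with a standard error of 0.123 (adjusted p = 0.933), and without AdSIRT4 replicate 1 it gave 0.068, with a standard error of 0.0555 (adjusted p = 0.491).

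WWTR1 (chr3:149517235-149724788) had 411, 403 and 391 CPM in AdCtrl and 513, 463 and 439.6 CPM in AdSIRT4. All AdSIRT4 samples were above all AdCtrl samples, with replicate 1 the highest of each group. The log2 fold change of 0.23 (standard error 0.108) did not pass the test (adjusted p = 0.670, edgeR), and the exact permutation test gave p = 0.1, the smallest that 3 samples against 3 allow. Without AdSIRT4 replicate 1 WWTR1 was at a log2 fold change of 0.16, with a standard error of 0.0527 (adjusted p = 0.0890). The antisense gene WWTR1-AS1 overlaps WWTR1, and strand use in the counting was not stated, but its highest count of 79 compares with a lowest WWTR1 count of 17130.

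The balance of the coactivators was read per length, since a longer mRNA gives more counts. WWTR1 was at 2.43, 2.43 and 2.21 times the FPKM (fragments scaled for transcript length and library depth) of YAP1 in AdCtrl and at 3.62, 2.69 and 2.35 times in AdSIRT4. The ratio was highest in AdSIRT4 replicate 1, and the groups overlapped (exact permutation p = 0.3). The mean ratio was 2.36 in AdCtrl and 2.89 in AdSIRT4, or 2.52 without that sample. Summed, YAP1 and WWTR1 were at 100.2 ± 3.13 FPKM in AdCtrl and 109.2 ± 3.16 FPKM in AdSIRT4 (mean ± SD, n = 3 each, exact permutation p = 0.1), with no overlap, and AdSIRT4 was at 111 FPKM without replicate 1.

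TEAD1 and TEAD4 belong to the family of 4 TEAD factors that carry YAP and TAZ to DNA. TEAD1 (chr11:12674421-12944737) had 196, 199 and 209.6 CPM in AdCtrl and 113, 211 and 228 CPM in AdSIRT4. AdSIRT4 replicate 1 was the lowest of all samples and AdSIRT4 replicates 2 and 3 were the highest, so the group had an SD of 61.8 CPM where AdCtrl had 7.21 CPM. In edgeR its log2 fold change came to -0.13 with all samples (standard error 0.247, adjusted p = 0.869) and to 0.12 without that replicate (standard error 0.0555, adjusted p = 0.218).

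TEAD4 (chr12:2959397-3040676) had 47.1, 46.6 and 45.02 CPM in AdCtrl and 47.7, 43.8 and 43.8 CPM in AdSIRT4. These groups overlapped and lay within a few CPM of each other, and of the 8 tested genes TEAD4 had the smallest standard error. edgeR placed TEAD4 at a log2 fold change of -0.036, with a standard error of 0.0875 (adjusted p = 0.895), and -0.083 without AdSIRT4 replicate 1 (adjusted p = 0.382).

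The paralogs TEAD2 and TEAD3 and the cofactor VGLL4, which competes with YAP for TEAD, had log2 fold changes of -0.086, -0.14 and -0.048, with adjusted p-values of 0.789, 0.793 and 0.872 (edgeR). Without AdSIRT4 replicate 1 they were at -0.087, -0.0036 and -0.023. Of the 6 genes in this list 3 were tested, none was called at an adjusted or an unadjusted p under 0.05, and their median was -0.086. VGLL1 had no count in any sample, which allows up to 0.0770 CPM in the shallowest library by counting error alone, and VGLL2 and VGLL3 were too low to test. TEAD1 made up 25.5%, 25.5% and 28.9% of the summed FPKM of the TEAD genes in AdCtrl and 18.1%, 28.4% and 32.0% in AdSIRT4 (exact permutation p = 0.9). Its mean share was 26.6% in AdCtrl and 26.2% in AdSIRT4, or 30.2% without AdSIRT4 replicate 1. The summed level of TEAD1 to TEAD4 was 70.9 ± 0.686 FPKM in AdCtrl and 63.6 ± 8.35 FPKM in AdSIRT4 (mean ± SD, n = 3 each, exact permutation p = 0.1), with no overlap and with AdSIRT4 replicate 1 at 54.1 FPKM. Without that sample the AdSIRT4 mean was 68.4 FPKM, so the difference went from -7.28 to -2.50 FPKM. The lowest AdCtrl sum, 70.2 FPKM in replicate 3, was close to the highest AdSIRT4 sum, 69.5 FPKM in replicate 2. FPKM was not scaled by TMM, whose factors for these samples were 1.02 and 1.01, so the separation may depend on the scaling. TEAD4 by itself was separate in FPKM (22.96 to 23.2 in AdSIRT4, 23.8 to 24.5 in AdCtrl), whereas its CPM overlapped. The length implied for TEAD2 varied by 37.1% between samples, so its share is the least certain.

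NUAK2, an AMPK-related kinase, and ANKRD1, an ankyrin repeat protein of the nucleus and sarcomere, are targets of YAP and TEAD. NUAK2 (chr1:205302063-205321745) had 92.4, 94.4 and 93.5 CPM in AdCtrl and 138, 154 and 143 CPM in AdSIRT4. The AdCtrl samples had a coefficient of variation of 1.07%, and each AdSIRT4 sample was above all of them. This was a log2 fold change of 0.64 (standard error 0.0893), or a fold of 1.55, and it was 0.67 (standard error 0.0536) without AdSIRT4 replicate 1.

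ANKRD1 (chr10:90912096-90921087) had 13.4, 12.5 and 13.0 CPM in AdCtrl and 21.9, 17.3 and 19.8 CPM in AdSIRT4. Again all AdSIRT4 samples were the higher ones, with replicate 1 the highest. Its log2 fold change of 0.60 (standard error 0.116) was a fold of 1.52, and came to 0.51 (standard error 0.0828) without that replicate. With NUAK2 and ANKRD1 included, which were chosen by this difference, groups were separate in 4 of 10 genes, all with AdSIRT4 above, where 9.66% of all genes were, and nothing is read from this count.

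**Figure D2:**
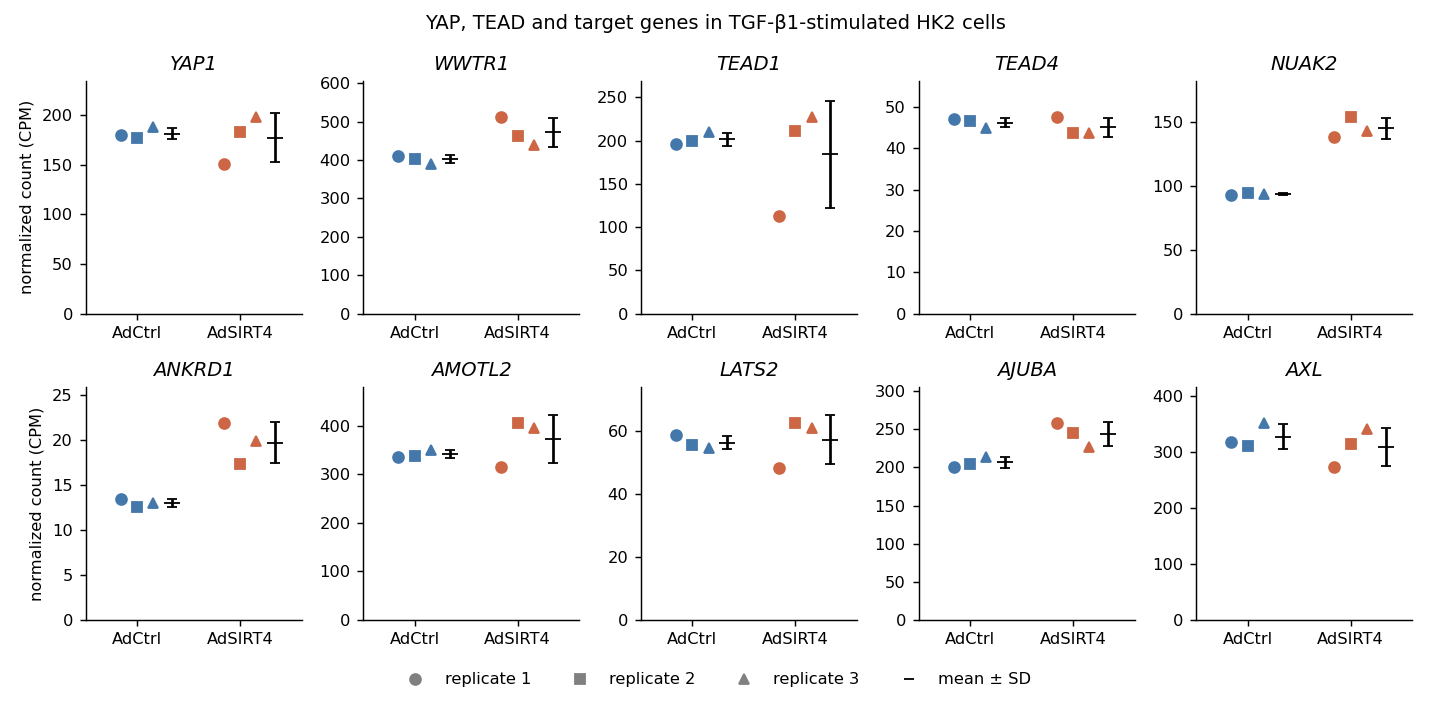
CPM of each of the 10 genes (vertical axes from 0) in the 3 AdCtrl and 3 AdSIRT4 samples, with symbols for the replicate number and the mean ± SD as a bar. NUAK2, ANKRD1, WWTR1 and AJUBA have all AdSIRT4 points above the AdCtrl points, and the AdSIRT4 replicate 1 point is the lowest for TEAD1 (113 CPM), YAP1, AMOTL2, LATS2 and AXL.

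The genes whose pattern was most like NUAK2, by Pearson correlation of log2 CPM over the 6 samples among 14102 genes, were PDK1 (r = 0.999), SIRT4 (0.995) and ITGB8 (0.995). PDK1, a kinase that inhibits pyruvate dehydrogenase, had 32.5, 32.3 and 32.2 CPM in AdCtrl and 47.3, 52.7 and 49.3 CPM in AdSIRT4. Like NUAK2 it was highest in AdSIRT4 replicate 2 and lowest of that group in replicate 1. For ANKRD1 they were TMEM222 (r = 0.994), UMPS (0.993), an enzyme of pyrimidine synthesis, and GPR137B (0.992), all highest in AdSIRT4 replicate 1. These points share their libraries and fall into the same groups, so a high correlation repeats the group difference.

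LATS2, AMOTL2 and AJUBA act on the pathway itself, and LATS2 and AMOTL2 are targets as well. LATS2 (chr13:20973036-21061586), a kinase that phosphorylates YAP and TAZ, had 58.9, 55.8 and 54.7 CPM in AdCtrl and 48.4, 62.8 and 61.1 CPM in AdSIRT4. The lowest and the highest sample were both AdSIRT4. In edgeR LATS2 had a log2 fold change of 0.026, with a standard error of 0.120 (adjusted p = 0.946), and of 0.13, with a standard error of 0.0538 (adjusted p = 0.170), without AdSIRT4 replicate 1.

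AMOTL2 (chr3:134355345-134375417), an angiomotin that holds YAP at cell junctions, had 336, 338 and 350.1 CPM in AdCtrl and 315, 406 and 395 CPM in AdSIRT4. AdSIRT4 replicate 1 was below all AdCtrl samples and the other AdSIRT4 replicates were above them. With all samples edgeR gave AMOTL2 a log2 fold change of 0.12, with a standard error of 0.127 (adjusted p = 0.789). Without AdSIRT4 replicate 1 it was 0.22 (standard error 0.0502, adjusted p = 0.0253), the only one of the 8 called there, where 3.37% of 18287 genes were called higher and 3.34% lower.

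AJUBA (chr14:22971177-22982551), a LIM protein that binds and restrains LATS kinases, had 201, 205 and 214 CPM in AdCtrl and 259, 245 and 227 CPM in AdSIRT4. No AdSIRT4 sample was as low as an AdCtrl sample. The log2 fold change of 0.24 (standard error 0.0980) did not pass the test (adjusted p = 0.621, edgeR), and the exact permutation test gave p = 0.1, its smallest value. Its unadjusted edgeR value was under 0.05 (4.43% of all genes were higher at this threshold) and was no longer so with the replicate number as a block, where the adjusted p was 0.694. Without AdSIRT4 replicate 1 AJUBA was at a log2 fold change of 0.19, with a standard error of 0.0558 (adjusted p = 0.0685).

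AXL (chr19:41219223-41261766), a receptor tyrosine kinase and a target of YAP, had 318, 311 and 353 CPM in AdCtrl and 273, 315 and 341 CPM in AdSIRT4. In both groups replicate 3 was the highest, and the groups overlapped. For AXL edgeR gave a log2 fold change of -0.080, with a standard error of 0.123 (adjusted p = 0.845), and -0.0019 (standard error 0.0639) without AdSIRT4 replicate 1. GAS6, the ligand of AXL, had 44.5, 39.2 and 45.7 CPM in AdCtrl and 60.2, 50.1 and 55.0 CPM in AdSIRT4. The AdSIRT4 samples were all above the AdCtrl samples, at a log2 fold change of 0.35 (standard error 0.111) that did not pass the test (adjusted p = 0.545), and with AdSIRT4 replicate 1 left out it was 0.28 (adjusted p = 0.0440).

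**Figure D3:**
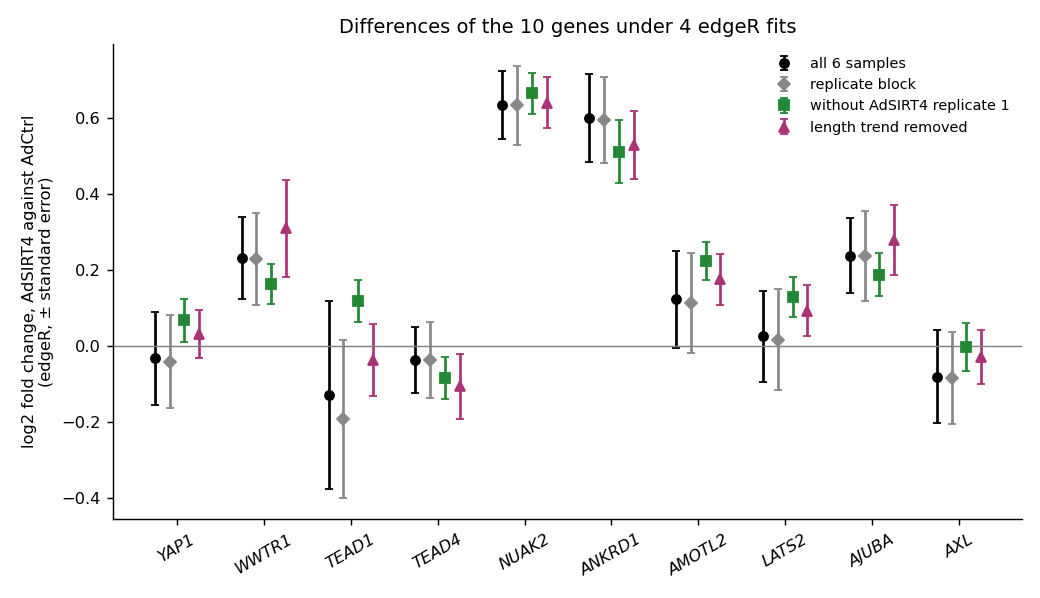
Log2 fold changes of the 10 genes, AdSIRT4 against AdCtrl, with standard errors as bars, in edgeR fits with all 6 samples, with the replicate number as a block, without AdSIRT4 replicate 1, and with each library's trend on transcript length removed. NUAK2 and ANKRD1 lie between 0.51 and 0.67 in all of them, WWTR1 and AJUBA between 0.16 and 0.31, and YAP1 and TEAD1 change sign without AdSIRT4 replicate 1 (0.068 and 0.12). With the length trend removed YAP1 also changes sign (0.032), whereas TEAD1 does not (-0.036).

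Per length, WWTR1 had the highest level of the 10 genes and ANKRD1 the lowest in AdCtrl. The order of mean FPKM in AdCtrl (n = 3) was WWTR1 (70.3 ± 1.62), AMOTL2 (61.8 ± 3.40), AXL (61.6 ± 6.21), AJUBA (44.6 ± 2.68), YAP1 (29.9 ± 1.93), NUAK2 (24.5 ± 0.759), TEAD4 (24.2 ± 0.374), TEAD1 (18.9 ± 1.23), LATS2 (8.96 ± 0.376) and ANKRD1 (6.41 ± 0.361), as mean ± SD. In this order AMOTL2 overlapped AXL, and NUAK2 overlapped TEAD4. In AdSIRT4, NUAK2 came before YAP1, at 37.3 ± 3.52 FPKM against 28.7 ± 5.30 FPKM, without overlap. The samples of AMOTL2, AXL and AJUBA overlapped their neighbours in the order, as did those of YAP1 and TEAD4. ANKRD1, at 9.47 ± 0.805 FPKM, then overlapped LATS2 at 8.97 ± 1.63 FPKM, and the lowest sample of TEAD1, at 9.78 FPKM, lay below the highest of both.

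**Figure D4:**
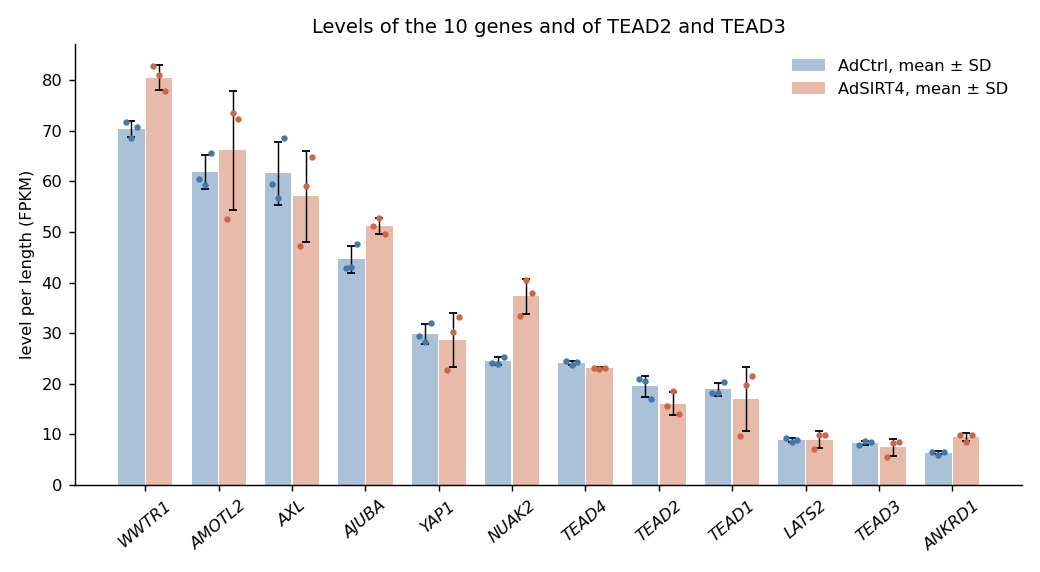
FPKM of the 10 genes and of TEAD2 and TEAD3 as bars from 0 (mean, with the SD as error bars) and points for the 3 samples of AdCtrl and of AdSIRT4, ordered by the AdCtrl mean. WWTR1 is highest in both groups (70.3 and 80.5 FPKM), and NUAK2 moves past YAP1 in AdSIRT4.

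The other genes of the pathway were listed apart from the 10. Among 33 other Hippo regulators 32 were tested, and none passed an adjusted p of 0.05. The list mixes genes that promote the pathway with genes that restrain it, so its median gives no direction for the pathway. The median log2 fold change of the 32 was -0.053, with 11 above 0 and 21 below. Groups did not overlap in 8 of 32, against the 19.4% of all genes. AdSIRT4 was above in 1 of these and below in 7, where it was above in 1711 and below in 1732 of 17720 genes. MAP4K2, an upstream kinase of LATS, was the only member with an unadjusted p under 0.05, which 3.5% of all genes had as lower. It had 18.6, 17.6 and 18.4 CPM in AdCtrl and 13.7, 15.1 and 16.2 CPM in AdSIRT4 (log2 fold change -0.28, standard error 0.101, adjusted p = 0.604), and was at -0.22 without AdSIRT4 replicate 1 (adjusted p = 0.0952). RASSF1 and WWC3, next by p, had log2 fold changes of 0.25 and -0.33, which came to 0.14 and -0.15 without that replicate. The regulators had a median length of 6.99 kb, above the 3.65 kb of all tested genes, and without AdSIRT4 replicate 1 their median was -0.0053. In that fit 3 were called higher (NF2, WWC1 and FRMD6) and 1 lower (FAT4), named after their values were seen, where 3.37% of all genes were called higher and 3.34% lower.

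Another 25 targets of YAP and TEAD were listed, 17 of which form a published signature of 22 genes together with NUAK2, ANKRD1, AMOTL2, LATS2 and AXL. Of these 25 genes 24 were tested, none passed an adjusted p of 0.05, and 12 lay above 0 and 12 below, with a median of 0.055. At an unadjusted p under 0.05, 5 were higher, among them CCN1, CCN2, THBS1 and EDN1, and 1 was lower (AREG), against 4.43% and 3.5% of all genes, where THBS1 and EDN1 are named after their values were seen. CCN2, a matricellular protein of fibrosis, had 347, 349 and 353 CPM in AdCtrl and 709.8, 527 and 507 CPM in AdSIRT4 (log2 fold change 0.73, standard error 0.152, adjusted p = 0.494). CCN1, its relative, had 1354, 1383 and 1410.3 CPM in AdCtrl and 2536, 1885 and 1725 CPM in AdSIRT4 (log2 fold change 0.57, standard error 0.171, adjusted p = 0.534). Both were highest in AdSIRT4 replicate 1, as ANKRD1, TEAD4, WWTR1 and AJUBA were. CCN2 and CCN1 are short, at 2.67 kb and 2.61 kb, as are ANKRD1 (2.04 kb) and TEAD4 (1.93 kb). WWTR1 (5.77 kb) and AJUBA (4.69 kb) are longer. Without AdSIRT4 replicate 1 the log2 fold changes were 0.56 for CCN2 (adjusted p = 0.000282) and 0.38 for CCN1 (adjusted p = 0.00497).

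AREG, an EGF receptor ligand and known YAP target, had the opposite sign, with 26.6, 23.8 and 28.7 CPM in AdCtrl and 18.4, 10.7 and 14.3 CPM in AdSIRT4 (log2 fold change -0.87, standard error 0.1996, adjusted p = 0.494). Its groups did not overlap. DESeq2 called 3 of these targets, among them CCN2 higher and AREG lower, at an adjusted p under 0.05 that 0.748% of 16176 genes had, and it called none of the 8 tested genes. Without AdSIRT4 replicate 1, edgeR called 6 targets higher, among them CCN1, CCN2, CRIM1, THBS1 and INHBA, and AREG lower, against 3.37% and 3.34% of all genes, with CRIM1, THBS1 and INHBA named after their values were seen. AREG was then at a log2 fold change of -1.08 (adjusted p = 0.00236).

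Of 7 relatives of the 10 genes, all were tested and none passed an adjusted p of 0.05, with GAS6 the only one under 0.05 unadjusted. ANKRD2 and ANKRD23, ankyrin repeat relatives of ANKRD1, were low, reaching at most 5.85 CPM and 2.40 CPM in a sample, with log2 fold changes of 0.46 (standard error 0.305) and -0.44 (standard error 0.233). Without AdSIRT4 replicate 1 these came to 0.038 and -0.25. NUAK1, the paralog of NUAK2 and named after its values were seen, had 53.1, 55.2 and 54.3 CPM in AdCtrl and 48.5, 69.5 and 68.4 CPM in AdSIRT4. Its AdSIRT4 replicate 1 was below all AdCtrl samples, unlike that of NUAK2, and its length was 6.58 kb where that of NUAK2 was 3.85 kb. NUAK1 was at a log2 fold change of 0.20 with all samples (adjusted p = 0.747) and of 0.34 without that replicate (adjusted p = 0.00477). In the latter fit NUAK1 and GAS6 were called, 2 of 7 relatives, both higher, where 3.37% of all genes were.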

How the data were processed

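RNA of 6 HK2 samples was sequenced. The authors deposited whole-number counts per gene and, for the same 38100 genes, another table read here as FPKM. That unit is not named in the file. It was inferred because counts per library divided by these values gave a length within 10% over all samples for 12556 of 14692 genes. The submitters' processing notes list fastp 0.21.0, HISAT2 2.1.0, StringTie 2.1.5, DESeq2 1.30.1 and hg38, without roles. The annotation and the use of strand are not given in the sources used here. No column was left without a sample.

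Counts were fitted with edgeR 4.0.16 (R 4.3.3) after filterByExpr (minimum count 10) and TMM, with the robust quasi-likelihood test of AdSIRT4 against AdCtrl and Benjamini-Hochberg adjustment over 17720 genes at 0.05. Standard errors are the absolute log2 fold change over the square root of F. Levels and ratios were compared by exact permutation (two-sided, without pairing), where 0.1 is the smallest p. Alternatives were DESeq2 1.42.0, RLE scaling, other filters, limma 3.58.1 on log2(FPKM + 1) and log2(FPKM + 0.1), removal of each library's length trend, a replicate block and each sample left out. The main fit, the replicate block, the length trend removal and DESeq2 were tested on simulated counts. These held no length trend and no deviating sample, so that test does not cover the trend seen in AdSIRT4 replicate 1. Tables and figures used Python 3.11.15, pandas 2.3.3, numpy 2.4.6, scipy 1.17.1 and matplotlib 3.10.9.

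Deviations from the group means correlated across genes at 0.178, 0.159 and 0.176 for samples with the same replicate number and at -0.188 to 0.0298 for the others. The labels state no pairing. The numbers entered only the fits with a replicate block, and all other tests were unpaired. The length correlations in AdCtrl and AdSIRT4 were -0.24 and -0.71 for replicate 1 and -0.033 and 0.64 for replicate 2. For replicate 3 they were 0.25 and 0.66. The part of length in the correlations between samples was not tested. No replicates were copies of each other (chi-square per gene 10.1 to 233).

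The 10 genes and the lists were chosen with earlier results of these data known. Genes named were the 10, SIRT4, CCN1, CCN2, the 3 of each list with the smallest unadjusted p, and the 3 nearest patterns of NUAK2 and ANKRD1. Genes outside this rule are said to be so. Not every gene under the rule is reported here. Gene positions and promoters are from RefSeq (GRCh38.p14). PCR reads are not independent molecules, so limits from a count of 0 cover counting error only.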

Additional observations from a re-analysis of the deposited data

How the results depend on the processing

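Leaving out samples moved the counts most, and AdSIRT4 replicate 1 accounts for the upper end of each range. With each sample left out in turn, 0 to 1 of the 8 tested genes, 0 to 4 Hippo regulators, 0 to 7 other targets and 0 to 2 TEAD, VGLL and other relatives passed an adjusted p of 0.05, where none did with all samples. All of these calls came in the fit without AdSIRT4 replicate 1, which called 3.37% of 18287 genes higher and 3.34% lower. DESeq2 called 3 other targets, where 0.748% of 16176 genes were called. Removal of the length trend with the replicate block called 1 other target, and the share of all genes called in that fit is not given here. At an unadjusted p under 0.05 the count among the 8 genes was 1 with all samples, where 7.93% of all genes were. It was 2 with DESeq2 (5.44% of all genes), 0 with all genes of at least 1 count (5.52%), 0 with the replicate block (7.201%), 3 with the length trend removed (13.9%), 2 with both of these (13.9%), 2 with limma on log2(FPKM + 1) (6.93%), 2 on log2(FPKM + 0.1) (6.31%), 0 above a mean FPKM of 1 (7.62%), and 0 to 4 with each sample left out (3.70% to 24.3%), the 4 and the 24.3% both without AdSIRT4 replicate 1. For the other targets this number was 6, 10 with the length trend removed, and 4 to 11 with each sample left out. The sign of YAP1 turned with the length trend removed (log2 fold change 0.032, and 0.032 with the replicate block) and ranged from -0.12 to 0.068 with samples left out. TEAD1 ranged from -0.31 to 0.12. LATS2 was at -0.012 with limma on log2(FPKM + 1), -0.015 on log2(FPKM + 0.1) and -0.012 above a mean FPKM of 1, and ranged from -0.038 to 0.13. The cause was not tested. The fit with the replicate block changed no call at an adjusted p of 0.05, and at the unadjusted threshold it gave 7 other targets. DESeq2 called no Hippo regulator and no relative. NUAK2 lay between 0.58 and 0.67 and ANKRD1 between 0.50 and 0.69 in all of these fits.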
